A study of Mus musculus with 12 samples.

Results

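Genes of ribosome assembly and of the nucleolus were followed in mouse tumours of MC38, an established line of colon carcinoma. The list holds 49 genes, of which 48 were read by at least 1 array probe set of their own, out of 18193 genes on the array. Each gene was represented by its brightest probe set over 12 arrays. All 48 lay above the filter on low values, a mean log2 value of 5.55, which left 11070 genes for testing. Mrto4, a factor of large subunit assembly, was read only together with its pseudogenes and is set apart.

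In all tumours the MC38 cells held shTDO2, a hairpin that doxycycline (Dox) switches on and that targets an enzyme of tryptophan breakdown, and they had been grown in the cecum of C57BL/6 mice. The 4 groups of 3 tumours were APC-WT no Dox, APC-WT Dox, APC-KO no Dox and APC-KO Dox, where APC-KO cells lacked APC, the scaffold that keeps beta-catenin low, and Dox was given in drinking water. Controls thus carried the hairpin too. Dox in cells that lack it was not analysed here, so effects of the drug and of the hairpin cannot be told apart. The labels used here do not state the animals' age, how many clones stand behind the APC-KO line or whether each tumour is from a different mouse. The p-values therefore rest on the spread among these tumours alone, part of which may be technical. Tdo2 lay under the filter and was not followed. Apc, on its brightest probe set, differed by -0.17 ± 0.05 (SE of the fit) in APC-KO against APC-WT averaged over Dox states (adjusted p 0.0115 in limma).

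Ribosomes are assembled mainly in the nucleolus. RNA polymerase I makes a long precursor there, small nucleolar ribonucleoproteins (snoRNPs) guide its chemical modification, and a large set of assembly factors folds and cuts it into the parts of the small and the large subunit. The transcription factor MYC, which is a target of beta-catenin in the gut, is known to drive many of these genes, and colon tumours are known for large nucleoli.

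The members were selected on measured values of these arrays, but which comparison was used is not recorded. Eif1ad, Rrp1b, Rsl1d1 and Bysl were noticed for their differences with Dox in APC-WT tumours, and the other members share their field of function. That comparison was therefore taken as the one used, and it and every comparison that contains it are given as a description with no test. Dox in APC-KO tumours rests on other arrays. APC deletion averaged over Dox states uses the sum of the APC-WT groups and not their difference. These 2 comparisons were tested under that assumption, and if the choice also used them their p-values are descriptions too. The sum still shares the APC-WT arrays and is independent of the difference only where both groups spread alike. The SD without and with Dox was 0.14 and 0.04 for Nop2, 0.18 and 0.05 for Utp18, but 0.13 and 0.23 for Rrp12. The choice of members may therefore carry into the averaged comparison, and its p-values are read with that limit.

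Promoter windows are shown to give the sequence in front of these genes and their E-boxes, the motif best known for this class of genes. RefSeq promoter sequences (build GRCm38.p6, from 250 bases before to 50 bases after the start) were found for 41 of the 49 genes. They were searched for CACGTG, the E-box letters that MYC with MAX is known to bind, which reads the same on both strands. It was present for 9 of 41 members (22%), against 1065 of 8957 tested genes with a window (11.9%), and in 7.15% of all 32851 windows. The matches are printed with 7 bases on each side and the E-box in capitals.
Imp4: cttagacCACGTGacatccc
Ltv1: gtggaccCACGTGtggagct
Nop2: cctggatCACGTGtgttccg
Pes1: ggcagggCACGTGcgggagg
Pno1: aaccacgCACGTGttcctct
Tsr1: tggtgcaCACGTGgactgca
Utp18: cgccggtCACGTGgcttgcg
Utp20: ctaactaCACGTGaggaaaa
Wdr43: gggcgaaCACGTGgctgccg
The first base of the match lay at -121 for Imp4, -60 for Nop2 and -20 for Utp18, counted from the start base as 0, and inside the transcribed part for Pes1 at 2, Wdr43 at 17, Tsr1 at 24, Ltv1 at 28, Pno1 at 37 and Utp20 at 37. A match of letters is a description and no measured binding. The median difference with Dox in APC-WT tumours was 0.15 for the 9 members with the E-box and 0.16 for the 31 measured members without it.

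The windows of Eif1ad, Rrp1b, Rsl1d1 and Bysl, which lead the list, held no CACGTG, so no letters are in capitals. They lie at chr19:5366563-5366862 on the plus strand (Eif1ad), chr17:32035912-32036211 on the plus strand (Rrp1b, the first of its 2 windows), chr16:11203243-11203542 on the minus strand (Rsl1d1) and chr17:47611443-47611742 on the minus strand (Bysl), and are written along the gene's strand. That the letters are not in a window says nothing about the factor.
Eif1ad: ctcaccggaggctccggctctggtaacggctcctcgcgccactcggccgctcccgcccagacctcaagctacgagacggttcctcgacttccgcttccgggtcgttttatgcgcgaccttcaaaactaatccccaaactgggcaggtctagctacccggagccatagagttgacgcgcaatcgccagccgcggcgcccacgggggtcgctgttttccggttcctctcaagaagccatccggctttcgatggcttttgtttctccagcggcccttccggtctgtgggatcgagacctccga
Rrp1b: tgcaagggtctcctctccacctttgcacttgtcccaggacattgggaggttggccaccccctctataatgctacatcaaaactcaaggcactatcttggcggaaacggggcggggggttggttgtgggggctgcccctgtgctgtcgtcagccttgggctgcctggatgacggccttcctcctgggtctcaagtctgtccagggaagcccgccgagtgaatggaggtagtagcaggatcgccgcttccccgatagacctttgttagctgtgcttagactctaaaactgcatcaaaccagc
Rsl1d1: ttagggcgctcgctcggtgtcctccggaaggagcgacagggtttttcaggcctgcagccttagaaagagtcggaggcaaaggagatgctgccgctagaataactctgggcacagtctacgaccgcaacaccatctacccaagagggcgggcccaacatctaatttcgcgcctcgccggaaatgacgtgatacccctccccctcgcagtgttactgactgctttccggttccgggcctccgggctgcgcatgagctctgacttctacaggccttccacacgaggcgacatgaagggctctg
Bysl: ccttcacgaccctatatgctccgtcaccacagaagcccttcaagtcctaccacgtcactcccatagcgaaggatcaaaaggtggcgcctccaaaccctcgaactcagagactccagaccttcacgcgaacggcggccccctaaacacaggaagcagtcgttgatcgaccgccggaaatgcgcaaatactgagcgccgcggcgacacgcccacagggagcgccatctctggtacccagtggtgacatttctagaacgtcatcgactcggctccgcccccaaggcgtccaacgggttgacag

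The data are deposited log2 values of 12 Affymetrix arrays. Arrays of a group correlated at 0.995 to 0.998 and no 2 arrays were identical. Host cells were measured together with tumour cells: all 7 macrophage and all 6 fibroblast markers lay above the filter, while all 6 markers of normal colon epithelium lay under it. Of 6 epithelial or carcinoma markers, Krt8, Epcam and Cdh1 lay above it and Krt18, Krt19 and Cldn4 under it. In bulk tumours fewer cells of a type and less RNA per cell cannot be told apart. The members were bright genes, with means from 7.26 (Rrp12) to 13.03 (Npm1) and a median of 9.44, against a median of 8.35 over all tested genes, and 43 of 48 lay above that median.

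With Dox in APC-WT tumours, the comparison in which the leading genes were noticed, most members lay higher than in untreated APC-WT tumours. Eif1ad encodes a nuclear relative of the translation initiation factor eIF1A. Its log2 values were 9.09, 9.11 and 9.21 on the untreated APC-WT arrays, 9.56, 9.51 and 9.51 with Dox, 9.54, 9.46 and 9.55 in untreated APC-KO tumours and 9.51, 9.47 and 9.51 in APC-KO tumours with Dox. The 3 untreated APC-WT tumours were the lowest of the 12, and the other groups overlapped one another. The difference with Dox was 0.39 ± 0.05 in the APC-WT tumours and -0.02 ± 0.05 in those with APC deleted.

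Rrp1b, a nucleolar protein of the RRP1 family, had 8.75, 8.84 and 8.91 on untreated APC-WT arrays, 9.21, 9.22 and 9.15 with Dox, and 9.19, 9.20, 9.16, 9.13, 9.15 and 9.33 on the APC-KO arrays, the first 3 without Dox. Rsl1d1, a nucleolar protein with a ribosomal L1 domain, had 9.84, 9.95 and 10.00, then 10.31, 10.23 and 10.25 with Dox, and between 10.25 and 10.45 in the 6 APC-KO tumours. Bysl encodes bystin, which is needed to mature the small subunit, and had 8.28, 8.22 and 8.46, then 8.81, 8.65 and 8.65 with Dox, and between 8.76 and 8.90 in APC-KO tumours. In each of these genes the untreated APC-WT group lay apart below the other 9 arrays. The differences with Dox in APC-WT tumours were 0.36 ± 0.06, 0.33 ± 0.06 and 0.39 ± 0.07.

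For this difference with Dox, other probe sets of the same genes gave the same sign with other sizes. The second probe set of Eif1ad differed by 0.16 with Dox in APC-WT tumours, the others of Rrp1b by 0.11 and 0.09, and the second of Bysl by 0.49. Rsl1d1 has a single probe set. Of 31 members with 2 or more probe sets above the filter, 22 had the same sign on all of them in this comparison.

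**Figure D1:**
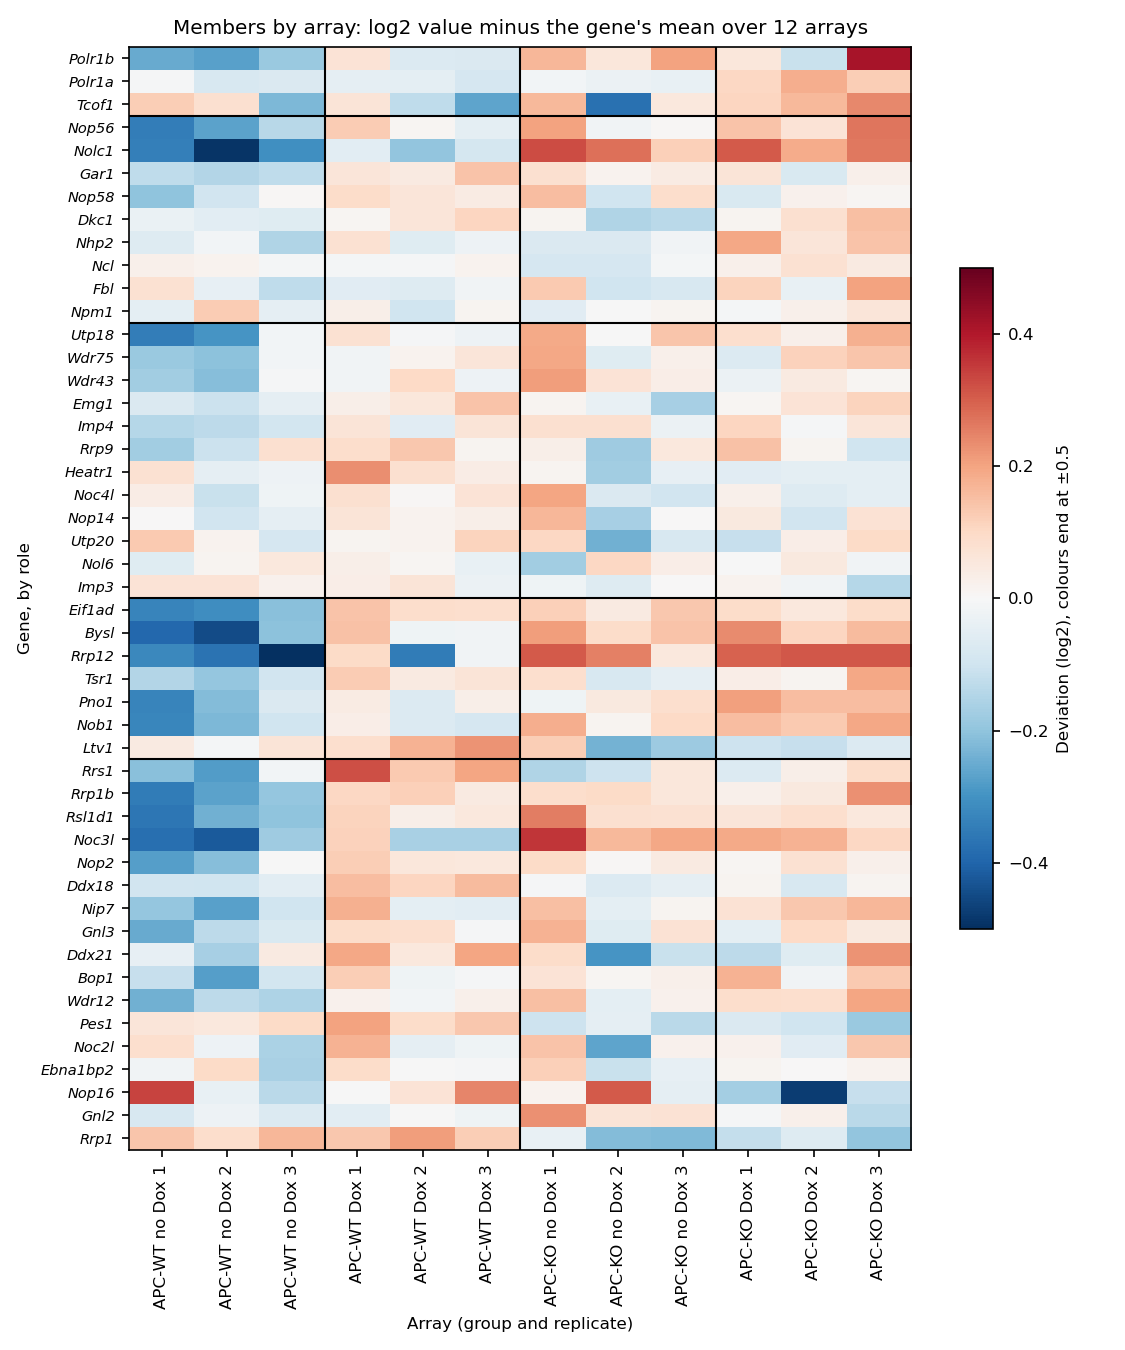
Log2 value of each of 48 members (rows, ordered by role: RNA polymerase I, snoRNP and nucleolar phosphoproteins, early small subunit, late small subunit, large subunit) minus the gene's mean over 12 arrays (columns, 3 per group); red is above and blue below that mean. Most rows are blue on the 3 untreated APC-WT arrays, where 13, 9 and 8 of 48 members lay above their own mean.

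Over the list, 41 of 48 members were above 0 with Dox in APC-WT tumours, against 47.0% of all tested genes, with a median of 0.15 against -0.01. For 26 members the 3 Dox tumours all lay above the 3 untreated ones, against 11.0% of all tested genes, and for 0 members all below, against 10.3%. The 26 were Eif1ad, Rrp1b, Rsl1d1, Bysl, Nop56, Nop58, Dkc1, Gar1 and Nolc1, the polymerase gene Polr1b, the small subunit genes Nop14, Imp4, Emg1, Nob1, Tsr1, Ltv1 and Pno1, and the large subunit genes Nop2, Bop1, Wdr12, Rrs1, Gnl3, Nip7, Noc3l, Ddx21 and Ddx18. The groups overlapped for Pes1, Rrp1, Nop16, Ebna1bp2, Gnl2, Noc2l, Nhp2, Rrp12, Wdr43, Wdr75, Utp18, Utp20, Heatr1, Rrp9 and Noc4l, all above 0, and for the 7 members below 0, Fbl, Ncl, Npm1, Nol6, Imp3, Polr1a and Tcof1. Of the 48, 1 (Eif1ad) had an adjusted p under 0.05 as higher, against 0.00903% of all genes. That share is Eif1ad itself, the 1 gene of 11070 that was called higher. Eif1ad was noticed for this difference, so its call is a description and no test. These shares describe the contrast taken as the one that chose the members and support nothing. The 3 untreated APC-WT arrays lay below all 9 others for 18 members, against 4.50% of tested genes, and the untreated APC-WT mean was the lowest of the 4 for 33, against 28.0%.

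By role, the large subunit factors and the late small subunit factors had the highest medians in this comparison. All 17 large subunit members were above 0, with a median of 0.20. Apart from Eif1ad, Rrp1b, Rsl1d1 and Bysl the largest difference of a member was that of Rrs1, which helps to bring the 5S particle into the large subunit, at 0.38 ± 0.08. Its values were 10.39, 10.32 and 10.59 without Dox, 10.92, 10.73 and 10.80 with Dox, and between 10.45 and 10.69 in APC-KO tumours. Unlike in the genes above, the APC-KO tumours overlapped the untreated APC-WT tumours, and APC-WT tumours with Dox stood above all others.

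All 7 late small subunit members were above 0 (median 0.22), among them Rrp12, an export factor, at 0.33 ± 0.11, Tsr1, a GTPase-like factor, at 0.22 ± 0.06, and Pno1, the partner of the nuclease Nob1, at 0.21 ± 0.06. Of 12 early small subunit members 10 were above 0 (median 0.13), with Utp18 highest at 0.23 ± 0.08 and Imp3 lowest at -0.03 ± 0.05. Of 9 snoRNP genes and nucleolar phosphoproteins 6 were above 0 (median 0.11). Of the C/D box snoRNP proteins, Nop56 was at 0.28 ± 0.08 and fibrillarin, the methyltransferase of these particles, at -0.01 ± 0.07 (Fbl). Gar1, of the H/ACA class, was at 0.22 ± 0.05.

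The brightest members stayed near the same level in all groups. Npm1, which encodes the histone chaperone nucleophosmin, lay between 12.93 and 13.16 on the 12 arrays, and Ncl, which encodes nucleolin, between 12.58 and 12.74. Their differences with Dox in APC-WT tumours were -0.03 ± 0.05 and -0.01 ± 0.03. Of the 3 RNA polymerase I genes, Polr1b, the second largest subunit, was at 0.21 ± 0.11, Polr1a, the largest, at -0.01 ± 0.05, and Tcof1, which encodes treacle, at -0.10 ± 0.13, the lowest of all members. Tcof1 had 8.39, 8.34 and 8.04 without Dox and 8.33, 8.14 and 8.00 with Dox, so these groups overlapped.

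**Figure D2:**
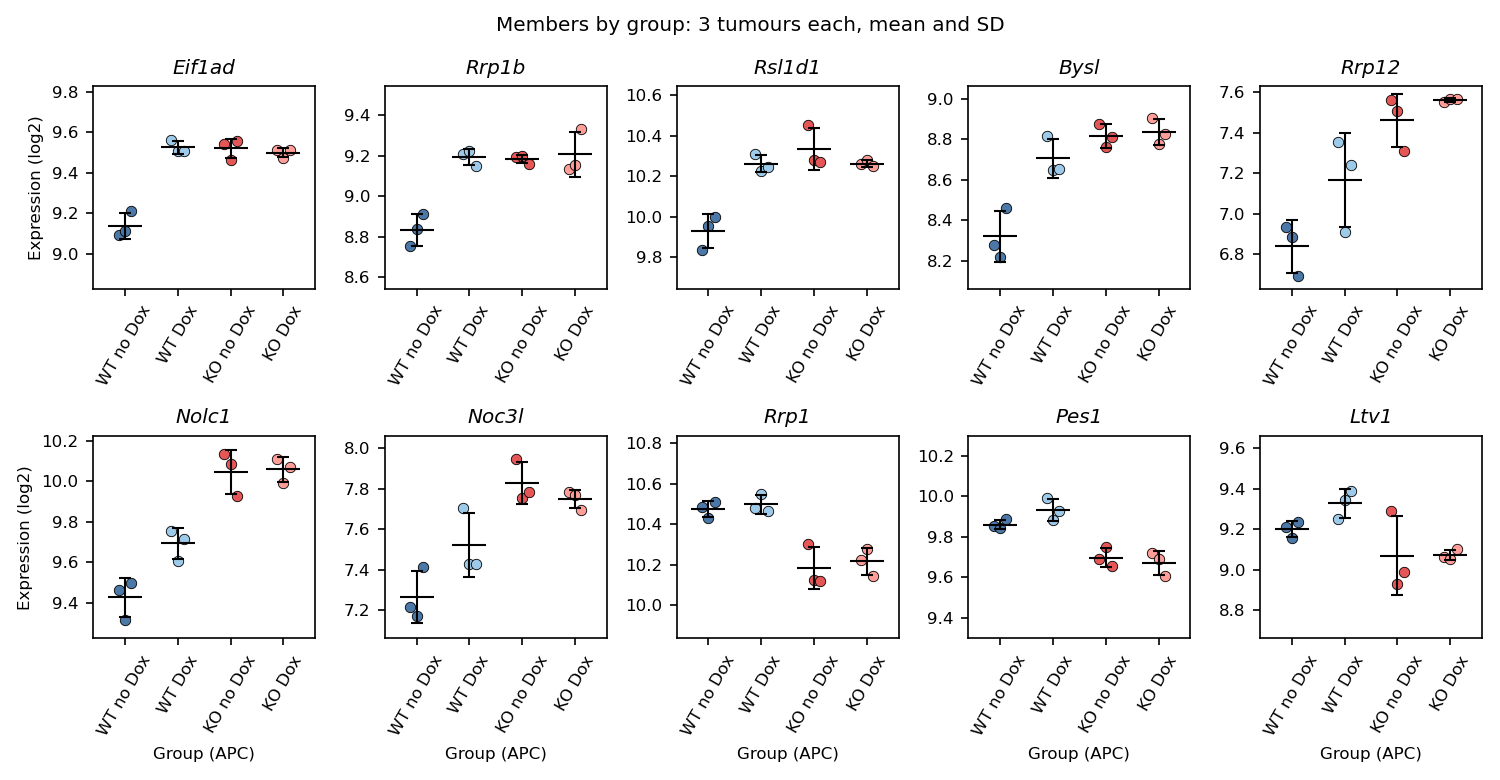
Log2 expression of 10 members (1 panel each, all axes spanning 1 log2 unit) by group, with 3 tumours as points, the mean as a line and the SD as bars. Untreated APC-WT tumours lie below the other groups for Eif1ad, Rrp1b, Rsl1d1 and Bysl, both APC-KO groups lie above both APC-WT groups for Nolc1, and below them for Rrp1 and Pes1.

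Other measures also separated the APC-WT groups. The 3' minus 5' signal of the Gapdh control was -0.092, -0.116 and -0.115 without Dox and -0.188, -0.158 and -0.163 with Dox, while that of Actb overlapped. The summed level (log2) of the 6 epithelial or carcinoma markers was 10.41 to 11.78 without Dox and 9.81 to 10.00 with Dox. These markers did not go one way: of the 3 above the filter 2 were lower with Dox and 1 higher (-1.35 to 0.19). The summed level of the 6 fibroblast markers, of which 4 were lower and 2 higher, was 14.78 to 14.90 and 14.71 to 14.77. That of the 5 T cell markers read was 9.48 to 9.93 and 9.06 to 9.46. The summed level of the 7 proliferation markers read overlapped, at 14.01 to 14.13 and 14.00 to 14.03. Of these markers 6 were lower with Dox and 1 higher (-0.19 to 0.04). The part of these in the members' values was not tested.

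Dox in APC-KO tumours had no member past the test. Of 48 members 0 passed in limma (adjusted p under 0.05), against 0.542% of all tested genes. Before adjustment 7 members had p under 0.05, 5 of them higher, which is 14.6% against 13.1% of all genes. The median difference was 0.02, against 0.00 over all tested genes, and 33 members were above 0, against 50.8% of all genes. For 4 members (Ncl, Polr1a, Nhp2 and Pno1) the Dox tumours all lay above the untreated ones, and for 2 (Nop16 and Gnl2) all below, against 8.08% and 9.67% of all genes.

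For the 4 leading genes the 95% intervals in APC-KO tumours were -0.13 to 0.09 (Eif1ad), -0.12 to 0.16 (Rrp1b), -0.20 to 0.06 (Rsl1d1) and -0.14 to 0.18 (Bysl). For 32 of 48 members the interval lay within -0.25 and 0.25. The smallest p was that of Nhp2, an H/ACA snoRNP protein, with 11.07, 11.07 and 11.13 without Dox and 11.34, 11.21 and 11.29 with Dox, a difference of 0.19 ± 0.05 (adjusted p 0.158). Its groups did not overlap, and the call was not reached.

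In the other direction Nop16, a large subunit factor, had the smallest p, with 9.07, 9.37 and 9.01 without Dox and 8.89, 8.58 and 8.94 with Dox (-0.35 ± 0.13, adjusted p 0.269). It was also the member with the widest spread in untreated APC-WT tumours, at 9.40, 9.02 and 8.92. Markers of neutrophils moved with this comparison: S100a8 and S100a9 fell (2 of 3 tested) and the summed level of the 4 markers read went from between 8.94 and 10.84 to between 7.30 and 7.77. All 7 proliferation markers read lay above 0 (median 0.15). Of 7 macrophage markers 6 lay below 0 and 1 above (median -0.09). In both of these lists 0 markers passed. In APC-KO tumours the middle-region control of 18S ribosomal RNA had 9.80, 10.16 and 9.89 without Dox and 9.34, 9.37 and 9.61 with Dox. The 6 APC-WT tumours had between 9.39 and 9.61. The 3' control of this RNA had 8.93 to 9.26, then 8.46 to 8.72 with Dox, and 8.60 to 8.84 in APC-WT tumours. The 5' control had 9.51 to 9.86, then 9.08 to 9.38 with Dox, and 9.18 to 9.73 in APC-WT tumours. On the 5' control the untreated APC-KO tumours thus overlapped the APC-WT tumours. The part of these in the members' values was not tested.

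The interaction, the difference with Dox in APC-KO minus that in APC-WT tumours, had a median of -0.13 over the members, against 0.01 over all genes, and 11 of 48 members were above 0, against 52.2% of all genes. It contains the contrast taken as the one that chose the list and shares all its arrays, so it is no second observation. The lowest values were those of Eif1ad (-0.41 ± 0.07) and Rsl1d1 (-0.40 ± 0.08).

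**Figure D3:**
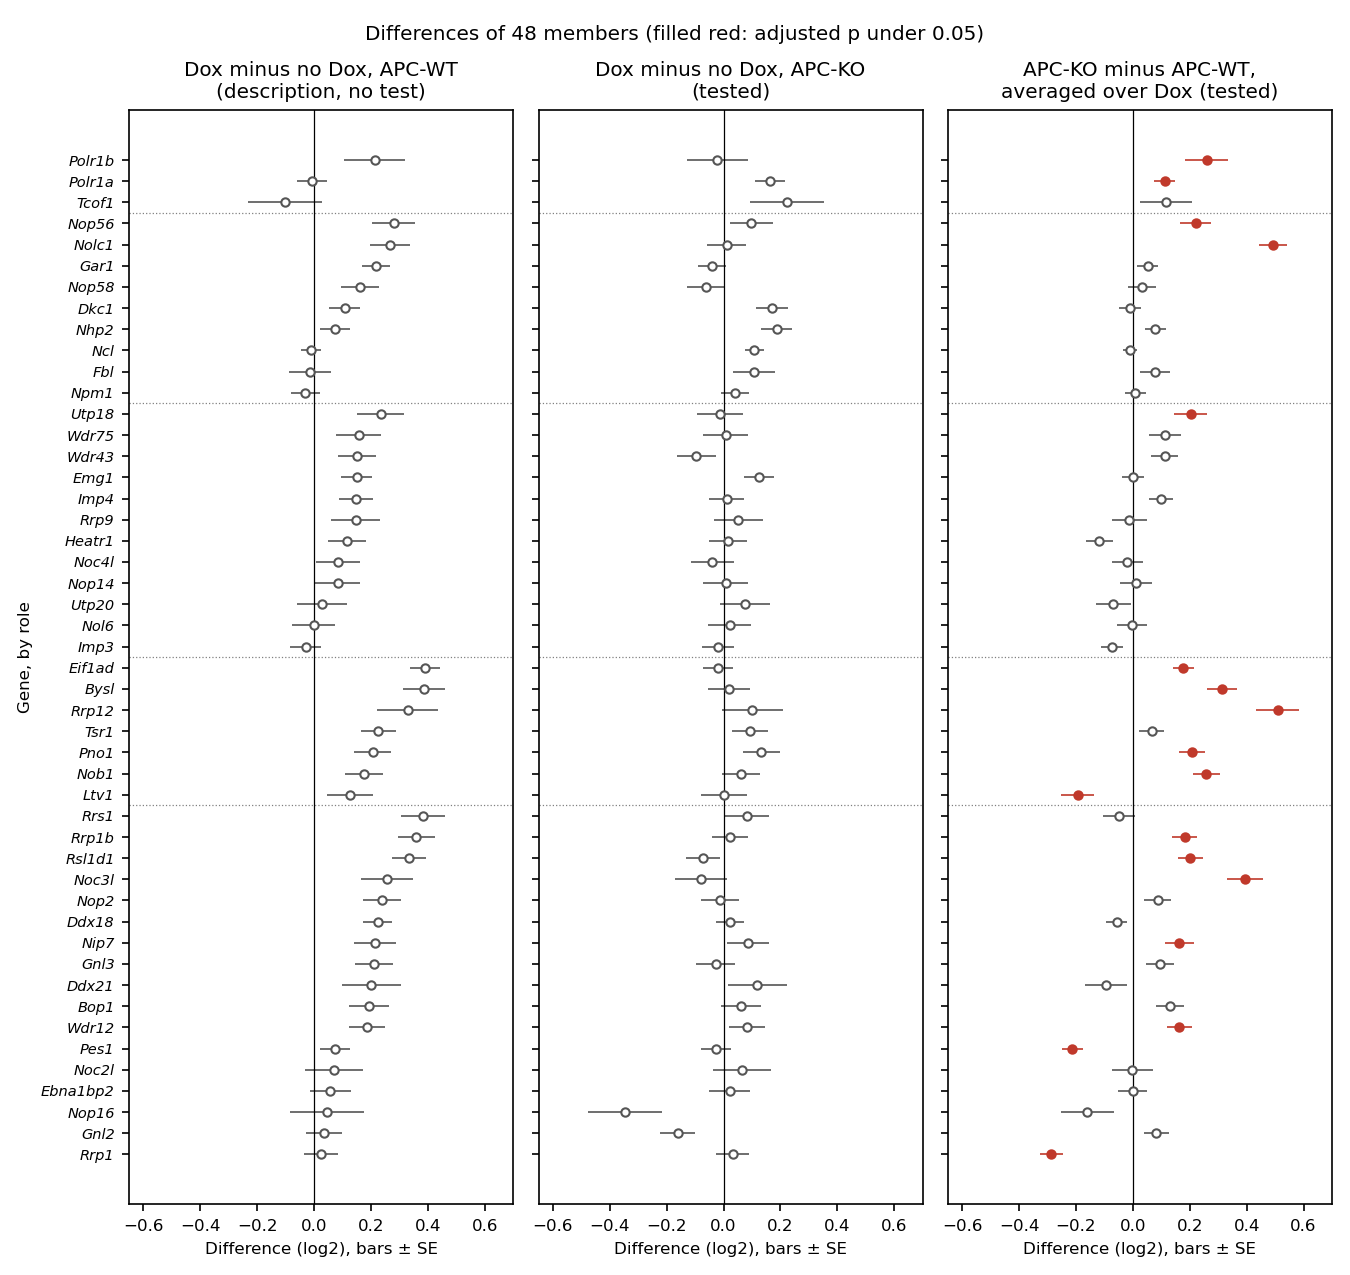
Difference (log2, bars ± SE of the limma fit) of each of 48 members, ordered by role from RNA polymerase I at the top to the large subunit at the bottom, with Dox in APC-WT tumours (left, not tested), with Dox in APC-KO tumours (middle) and between APC-KO and APC-WT tumours averaged over Dox states (right); filled red points have an adjusted p under 0.05. No point is filled in the middle panel, and 15 to the right and 3 to the left of 0 are filled in the right panel.

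Averaged over Dox states, 15 of 48 members were higher and 3 lower with APC deletion, and 30 did not pass. In either direction that is 37.5% of the members, against 36.5% of all tested genes, so members changed about as often as any gene. By direction, 31.2% of the members were higher, against 20.9% of all genes, and 6.25% were lower, against 15.6%. Without Eif1ad, Rrp1b, Rsl1d1 and Bysl, 11 of 44 (25%) were higher. The median was 0.08, against 0.01 over all genes, and 31 members were above 0, against 53.6%. The APC-WT arrays used here are also those of the contrast taken as the one that chose the list.

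The members that rose most were Rrp12, Nolc1, Noc3l and Bysl. Nolc1 encodes a chaperone of snoRNPs and had 9.46, 9.31 and 9.50 in untreated and 9.75, 9.61 and 9.72 in treated APC-WT tumours, against 10.13, 10.08, 9.93, 10.11, 9.99 and 10.07 in APC-KO tumours. It was the one member whose 6 APC-KO tumours all lay above the 6 APC-WT tumours (0.49 ± 0.05, adjusted p 5.38e-06). This holds for 8.93% of all tested genes. Of its other probe sets, 1 differed by 0.31 and 1 by -0.05.

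Rrp12 had 6.94, 6.89 and 6.69 in untreated and 7.35, 6.91 and 7.24 in treated APC-WT tumours, and between 7.31 and 7.57 in APC-KO tumours (0.51 ± 0.08, adjusted p 2.00e-04). The lowest APC-KO tumour overlapped the highest APC-WT tumour. Noc3l, which takes part in moving the large subunit precursor out of the nucleolus, had 7.22, 7.17 and 7.41, then 7.71, 7.43 and 7.43, and between 7.70 and 7.95 in APC-KO tumours (0.39 ± 0.06, adjusted p 3.69e-04). Bysl differed by 0.31 ± 0.05 (adjusted p 4.49e-04). The second probe sets of Bysl and Noc3l had the same sign but smaller differences, 0.06 and 0.13.

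Of the late small subunit factors 5 of 7 were higher (Bysl, Rrp12, Eif1ad, Nob1 and Pno1) and 1 was lower. Nob1, the nuclease that trims the end of the small subunit RNA, was higher by 0.26 ± 0.05 and Pno1 by 0.21 ± 0.05. Of the large subunit factors 5 of 17 were higher (Noc3l, Rsl1d1, Rrp1b, Wdr12 and Nip7) and 2 lower. Both polymerase subunits were higher (Polr1b 0.26 ± 0.08, Polr1a 0.11 ± 0.04), as were 2 of 9 snoRNP genes and phosphoproteins (Nolc1, and Nop56 at 0.22 ± 0.05) and 1 of 12 early small subunit factors (Utp18, 0.20 ± 0.06). The calls of Nip7 (0.16 ± 0.05) and Polr1a were lost in several fits with 1 array left out, and Nip7 had a second probe set at -0.48. The counts by role stand beside 20.9% of all tested genes higher and 15.6% lower. Those of the late small subunit include the leading genes Bysl and Eif1ad, and those of the large subunit Rsl1d1 and Rrp1b. Tests of the differences between these roles were not made.

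The members that fell were Rrp1, Pes1 and Ltv1. Rrp1 is the paralogue of Rrp1b, and the 2 genes went in opposite directions. Rrp1 had 10.48, 10.43 and 10.51 in untreated and 10.48, 10.55 and 10.46 in treated APC-WT tumours, against 10.30, 10.12, 10.12, 10.22, 10.28 and 10.14 in APC-KO tumours. All APC-KO tumours lay below all APC-WT tumours, which holds for 6.67% of tested genes (-0.29 ± 0.04, adjusted p 1.55e-04). Its second probe set differed by -0.33, and those of Rrp1b by 0.18, 0.30 and 0.41.

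Pes1 was likewise below in every APC-KO tumour, with 9.84 to 9.99 in the APC-WT group and 9.60 to 9.75 with APC deleted (-0.21 ± 0.04, adjusted p 5.89e-04). Pes1, Bop1 and Wdr12 encode the subunits of a single complex of large subunit assembly. Wdr12 was higher by 0.16 ± 0.05 (adjusted p 0.0119) and Bop1 did not pass (0.13 ± 0.05, adjusted p 0.0555), so the 3 genes did not go one way. The call of Wdr12 rests on its probe set, since a second one above the filter differed by -0.21. Ltv1, a late small subunit factor, had 9.16 to 9.39 in APC-WT tumours and 9.29, 8.93, 8.99, 9.06, 9.05 and 9.10 in APC-KO tumours (-0.19 ± 0.06, adjusted p 0.0167), where the first untreated APC-KO tumour lay among the APC-WT values.

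Split by Dox state, Eif1ad differed between the genotypes by 0.38 ± 0.05 without and -0.03 ± 0.05 with Dox, Rrp1b by 0.35 ± 0.06 and 0.01 ± 0.06, and Rsl1d1 by 0.40 ± 0.06 and 0.00 ± 0.06. Nolc1 differed by 0.62 ± 0.07 and 0.37 ± 0.07, and Rrp12 by 0.62 ± 0.11 and 0.40 ± 0.11. These are values of the brightest probe sets. On the second probe set of Eif1ad the treated groups had means of 9.40 (APC-KO) and 9.18 (APC-WT). In the same order the other probe sets of Rrp1b had 8.52 and 8.32, then 8.21 and 7.88. The small gap of Eif1ad and Rrp1b with Dox was thus not seen on their other probe sets. Those of Nolc1 had 8.74 and 8.95, then 8.23 and 8.12. Over the 15 higher members the median was 0.35 without and 0.13 with Dox. Of the lower members, Rrp1 differed by -0.29 ± 0.06 and -0.28 ± 0.06, Pes1 by -0.16 ± 0.05 and -0.26 ± 0.05, and Ltv1 by -0.13 ± 0.08 and -0.26 ± 0.08. The gap between these states is the interaction with its sign turned, so it follows in part from how the leading genes were noticed, and it was not tested.

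Cell type markers also differed between the genotypes. All 5 T cell markers read fell, among them Cd3g by 1.00 ± 0.17, and their summed level was 9.06 to 9.93 in the APC-WT tumours and 8.33 to 9.08 in the others. Krt8, an epithelial keratin, fell by 1.21 ± 0.29 (adjusted p 0.00545), as 1 of 3 epithelial or carcinoma markers tested. The other 2, Epcam and Cdh1, lay above 0 (at most 0.23) and did not pass. Of 7 macrophage markers Csf1r rose (0.17 ± 0.04) and Lyz2 fell (-0.18 ± 0.04), and of 3 neutrophil markers Csf3r rose (0.30 ± 0.07). Of 4 endothelial markers 3 rose, of 6 fibroblast markers 3 rose, and of 7 proliferation markers 1 rose (Mcm2) and 1 fell (Cdk1). The part of these in the members' differences was not tested.

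Other genes of the pathway, outside the members, were summarised by lists. Of 38 other small subunit processome genes 14 rose and 2 fell with APC deletion averaged over Dox states (median 0.07). Tsr2, a carrier of a small subunit protein, rose most (0.89 ± 0.05), and the kinase gene Riok2 rose by 0.43 ± 0.05. Of 43 other large subunit genes 14 rose and 3 fell (median 0.08), led by Gnl3l (0.82 ± 0.05) and Rpf2 (0.65 ± 0.06), with Gtpbp4 lowest (-0.31 ± 0.04). These shares again stand beside 20.9% of all genes higher and 15.6% lower.

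Of 13 other RNA polymerase I genes 4 rose and 0 fell, among them Rrn3, an initiation factor (0.30 ± 0.06). Of 15 RNA exosome genes 7 rose and 0 fell, led by Exosc1 (0.31 ± 0.06), and of 6 other snoRNP genes 3 rose and 0 fell, led by Nop10 (0.38 ± 0.05). An unadjusted p under 0.05 was reached by 4 of the RNA polymerase I genes and 3 of the snoRNP genes, all higher, and by 9 of the exosome genes, 7 of them higher, against 45.6% of all tested genes in either direction. Of 45 ribosomal protein genes 0 rose, 12 fell and 33 did not pass in limma, against 15.6% of all genes lower (14 had an unadjusted p under 0.05, 1 of them higher), with a median of -0.02 and Rpl14 lowest (-0.52 ± 0.09). Only 48 of 85 listed ribosomal protein genes had a probe set of their own, and these families have many near copies.

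Of 15 nucleotide and polyamine synthesis genes 9 rose and 1 (Paics) fell, with a median of 0.24. The phosphoribosyl pyrophosphate synthetase genes Prps1 (0.79 ± 0.04) and Prps2 (0.55 ± 0.05) rose most. Of 11 translation initiation factors 1 rose (Eif3a, 0.20 ± 0.03) and 2 fell (Eif5 and Eif3c). Of 12 MYC network genes 2 rose (Mxi1 and Mlxip) and 2 fell (Mxd4 and Mxd3). All these counts stand beside 20.9% of all tested genes higher and 15.6% lower. Myc itself had group means of 9.69, 9.72, 9.75 and 9.79 in the order of the groups above and did not pass (0.07 ± 0.07, adjusted p 0.514).

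With Dox in APC-KO tumours 0 genes of these lists passed in limma. Before adjustment p was under 0.05 for 4 of 38 other small subunit, 7 of 43 other large subunit, 0 of 13 RNA polymerase I, 3 of 6 snoRNP, 1 of 15 exosome, 4 of 45 ribosomal protein, 2 of 12 MYC network, 5 of 15 nucleotide synthesis and 2 of 11 initiation factor genes, against 13.1% of all tested genes. The smallest p of a list was that of Mxi1, a MYC antagonist (-0.35 ± 0.09, adjusted p 0.12), followed by Gmps, a guanine nucleotide synthesis gene (-0.19 ± 0.05, adjusted p 0.143), and Rrp36, a small subunit factor (-0.29 ± 0.08, adjusted p 0.157). With Dox in APC-WT tumours the medians were 0.09 for the other small subunit and 0.12 for the other large subunit genes, 0.01 for ribosomal proteins and -0.07 for the MYC network. They were 0.12 for the other snoRNP, 0.10 for the exosome and 0.10 for the nucleotide and polyamine synthesis genes. For initiation factors the median was 0.06, and for the other RNA polymerase I genes 0.05. Myc had a difference of 0.03 ± 0.10 there.

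Array by array, the median deviation of the 48 members from their own means was -0.12, -0.12 and -0.08 in untreated APC-WT tumours and 0.08, 0.01 and 0.02 with Dox. In APC-KO tumours it was 0.11, -0.05 and 0.02 without Dox and 0.03, 0.03 and 0.09 with Dox. The untreated APC-WT tumours were thus lowest, and the untreated APC-KO tumours spread most. Without the 4 leading genes the untreated APC-WT values were -0.09, -0.11 and -0.07. The APC-WT arrays are those of the contrast taken as the one that chose the list. Their levels are therefore a description, with or without the 4 genes. The median over all tested genes stayed between -0.03 and 0.03.

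**Figure D4:**
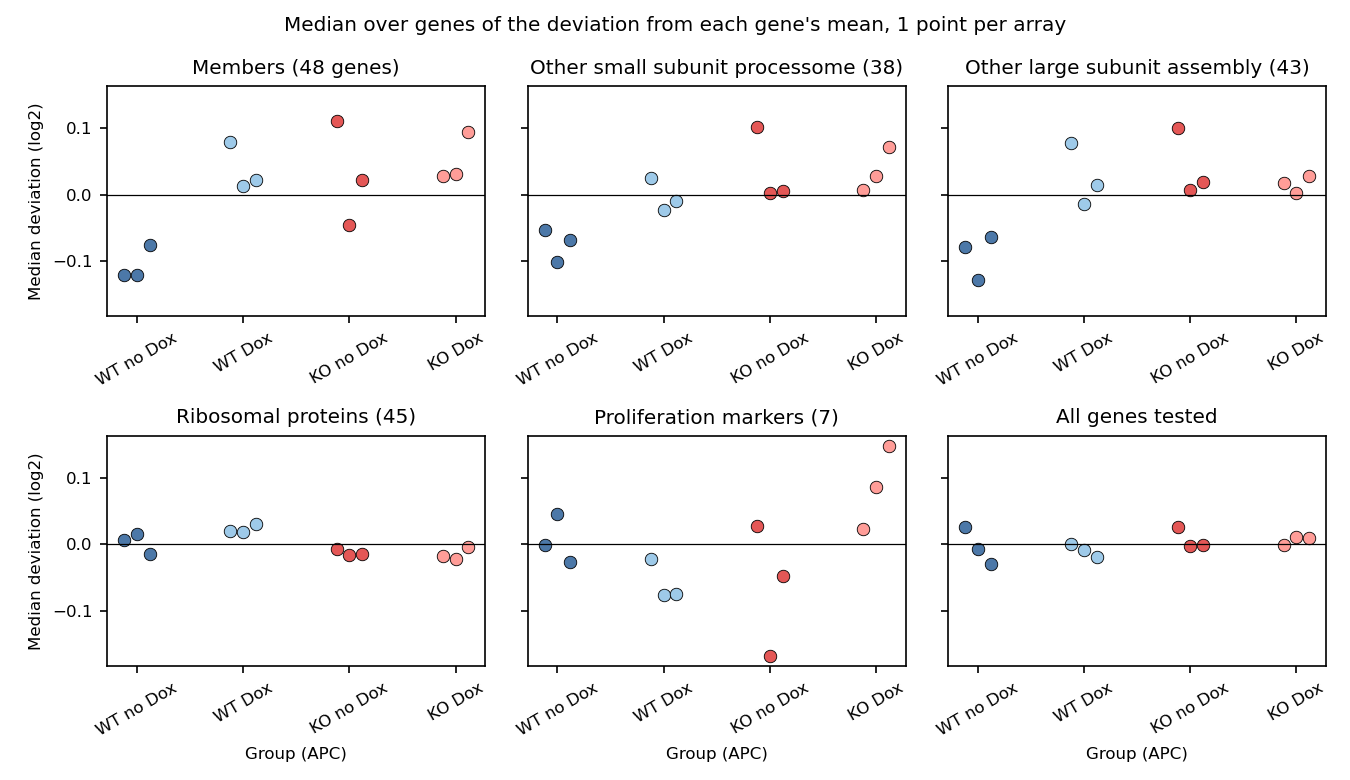
Median over the genes of a list of the deviation (log2) from each gene's mean over 12 arrays, 1 point per array and 3 per group, for the members, other small and large subunit assembly genes, ribosomal proteins, proliferation markers and all tested genes. The members lie lowest on the 3 untreated APC-WT arrays (-0.12, -0.12 and -0.08), while all tested genes stay between -0.03 and 0.03 on every array. These 3 arrays belong to the contrast taken as the one that chose the members.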

How the data were processed

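RNA of 12 tumours had been measured on Affymetrix arrays. The values that the authors deposited are on a log2 scale, as read from their range (1.86 to 14.16). The submitters' processing notes name MAS5 without a version. How background, scaling and the log step were handled is not stated in the labels used here. Of 45101 probe sets 64 were controls, 34945 had 1 gene, 932 several and 9160 none. Each gene took its brightest probe set. Genes with a mean under 5.55, the median of non-control probe sets, were left out, which is a filter and no measured background. A group-means model over all arrays was fitted with limma 3.58.1 in R 4.3.3 (eBayes with a trend, 2-sided, Benjamini-Hochberg over 11070 genes, threshold 0.05). It was run on simulated data with larger changes than those of most members. That run does not show how often changes of the members' size are found. The smallest p of an exact test with 3 tumours a group is 0.1. The members, lists and comparisons were chosen with earlier results of these data known. Named were the 4 leading genes, up to 4 passing members per direction in each tested comparison or else that of smallest p, the largest difference per direction with Dox in APC-WT, the 2 brightest, and up to 3 genes per direction of each list, or else that of smallest p. With arrays, their number limits the precision. Figures used matplotlib 3.10.9.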

Additional observations from a re-analysis of the deposited data

How the results depend on the processing

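In APC-KO tumours 0 members passed with Dox under all 10 other settings and with each of 12 arrays left out in limma, and the median difference was 9.07e-04 to 0.0656 with 1 array left out. The count of members called with APC deletion averaged over Dox states was 16 to 20 under the other settings and 16 to 21 with 1 array left out, and the median difference 0.0514 to 0.0978 and 0.0493 to 0.0862, in that order. Of 18 called members 15 kept the call throughout. With the mean of probe sets Nip7 and Wdr12 turned (-0.156 and -0.0352), since their second probe sets go the other way. Nip7 also lost its call in 5 fits with 1 array left out: replicate 2 of untreated APC-WT, replicates 2 and 3 of treated APC-WT, replicate 1 of untreated APC-KO and replicate 3 of treated APC-KO (adjusted p 0.0523 to 0.0646). Polr1a lost it in 6: with the mean of probe sets, with no filter, and without replicate 2 of untreated APC-WT, replicates 2 and 3 of treated APC-WT or replicate 2 of treated APC-KO (adjusted p up to 0.155). The 75th percentile filter left out Rrp12, Noc3l and Polr1b. The median with Dox in APC-WT was 0.134 to 0.213 with 1 array left out, highest without APC-WT no Dox replicate 3, and the median interaction -0.166 to -0.081. Replicate numbers did not pair the tumours: 4 of 18 correlations of same-numbered deviations were over 0.1 (from -0.221 to 0.175), and the own number correlated best in 12 of 36 comparisons. With the replicate block the counts were 0 and 20 and the medians 0.0219 and 0.078.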

Other observations

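Mrto4 was read by 1 probe set that is annotated to 3 genes, Mrto4 and its pseudogenes, so its values cannot be assigned to it alone. They were 9.69, 9.69 and 9.78 in untreated and 9.95, 9.82 and 9.88 in treated APC-WT tumours, and 9.94, 9.68, 9.87, 9.86, 9.76 and 9.78 in APC-KO tumours. The difference with Dox was 0.16 in APC-WT tumours and -0.03 with APC deleted.

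Probe sets of a gene disagreed more often than a single value per gene shows. Of 31 members with 2 or more probe sets above the filter, 20 had the same sign on all of them for APC deletion averaged over Dox states. For Nip7 the brightest differed by 0.16 and the other by -0.48, and for Wdr12 they differed by 0.16 and -0.21. The cause was not tested.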
